A study of Mus musculus with 6 samples.

Results

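The 10 transcripts described here are long noncoding or antisense RNAs whose UMI counts were lower in mandible than in femur bone marrow neutrophils. They were A330040F15Rik, Gm26535, Gm2245, Gm15283, Gm20528, Gm26827, Rsf1os1, E530011L22Rik, 4930469K13Rik and Gm16894, found by symbol among the 32285 genes of the deposited matrices. They were selected on the mandible against femur difference of their UMI counts in the neutrophil clusters, so their values there are given as a description, and where calls of a fit are counted among them nothing is read from the count. CD11b+ cells, the myeloid cells that carry integrin alpha M, had been taken with magnetic beads from bone marrow of 2-month-old C57Bl/6 mice with no other treatment or engineered allele in the labels. The 3 femur samples came from 1 female (replicate 1) and 2 males, and all 3 mandible samples were male. The labels place femur marrow collection in femurs and tibiae, whereas the study's methods speak of femurs, and neither says how many mice entered a sample, so the spread between samples may be partly technical. Mandibles had been flushed after extraction of the molars and removal of the condylar and incisal parts. Single cells were sequenced with a droplet-based 3′ method, in which a unique molecular identifier (UMI) marks each captured RNA molecule.

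A long noncoding RNA is a transcript with no known protein product. An antisense RNA is read from the strand opposite to another gene and overlaps it, so that both may share a stretch of DNA but not a sequence. Such RNAs can act on the neighbouring gene, act elsewhere, or be by-products of transcription at an active locus, and for the 10 transcripts here no role in neutrophils is assumed. Neutrophils mature in the marrow from granule-filled, dividing precursors (Elane, then Camp and Ltf) to mature cells that carry the receptors for G-CSF (Csf3r) and chemokines (Cxcr2).

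Positions are those of GENCODE vM21 on mouse build GRCm38. In that annotation 6 of the 10 are classed antisense, A330040F15Rik and Gm20528 processed transcripts, Gm26535 a long intergenic RNA, and 4930469K13Rik protein coding, although RefSeq lists 4930469K13Rik as a long noncoding RNA. Gm16894 (chr1:40076228-40085851, minus strand) lies opposite Il1r2, the decoy receptor for interleukin-1. Gm2245 (chr15:6604341-6654303, minus strand) lies opposite Fyb, an adaptor in integrin signalling, and 4930469K13Rik (chr11:33973961-34098554, minus strand) opposite Lcp2, which encodes the adaptor SLP-76. Gm15283 (chr12:73843039-73949814, minus strand) overlaps Hif1a, the oxygen-regulated transcription factor, and Gm26827 (chr7:66109515-66173121, minus strand) overlaps Chsy1, a chondroitin sulfate synthase. Rsf1os1 (chr7:97598349-97645112, minus strand) is opposite the chromatin remodelling factor gene Rsf1, and E530011L22Rik (chr9:121754662-121759943, minus strand) opposite Nktr, a cyclophilin-related gene, and Zfp651. A330040F15Rik (chr19:12517915-12596566, minus strand) contains Fam111a, a protease gene, on the other strand. Gm20528 (chr1:88055393-88218584, minus strand) spans the Ugt1a cluster, whose enzymes join glucuronic acid to hormones and drugs. Gm26535 (chr10:37337486-37379652, plus strand) overlaps no annotated gene. Thus 9 of 10 loci overlapped a gene on the opposite strand. The exons of the 10 covered 148 to 5282 bases. No source used here states whether introns or strand were used in counting, so where exons overlap, reads of a transcript and of the gene opposite cannot be told apart if strand was ignored. Shared exon sequence amounted to 2182 bases for E530011L22Rik with Nktr and 109 with Zfp651, 922 for Gm20528 with Ugt1a1, 534 with Ugt1a10 and 394 with each of the other Ugt1a genes, 330 for Gm15283 with Hif1a, 319 for Gm2245 with Fyb, 282 for 4930469K13Rik with Lcp2 and 148 for Gm26827 with Chsy1. It was 242 for A330040F15Rik with the opposite-strand Gm47243, and 0 for the exons of Gm16894 with Il1r2, Rsf1os1 with Rsf1 and A330040F15Rik with Fam111a.

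The 3′ method reads RNA next to its poly(A) tail, so the annotated 3′ ends bear on what could be counted. The last 50 bases of 6 transcripts, from GENCODE vM21 and written 5′ to 3′ as RNA sense in DNA letters, are shown with the polyadenylation hexamers AATAAA and ATTAAA in capitals where they occur.
Gm26535, ENSMUST00000181602: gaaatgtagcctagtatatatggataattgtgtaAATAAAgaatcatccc
Gm15283, ENSMUST00000125308: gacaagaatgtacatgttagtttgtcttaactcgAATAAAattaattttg
Rsf1os1, ENSMUST00000126902: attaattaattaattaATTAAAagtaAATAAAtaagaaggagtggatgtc
A330040F15Rik, ENSMUST00000224046: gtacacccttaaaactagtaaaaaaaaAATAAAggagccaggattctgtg
Gm16894, ENSMUST00000181756: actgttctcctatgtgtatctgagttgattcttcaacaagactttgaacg
Gm26827, ENSMUST00000181911: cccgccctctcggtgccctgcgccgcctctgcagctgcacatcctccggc
The first 4 ends carried AATAAA, and the last 2 carried neither hexamer. In the last 50 bases of any transcript, 36.8% of 9825 noncoding genes of the annotation held AATAAA, 15.0% ATTAAA and 47.1% either, searched on the transcript strand only. Over all 18 transcripts of the 10 genes, 5 of 10 genes held AATAAA, 2 held ATTAAA and 5 held either. The end of Gm26827, a spliced transcript of 148 bases that runs across most of Chsy1 and ends at its start, was rich in C and G, and all 148 bases lie over exons of Chsy1.

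RefSeq gave start sites for 6 of the 10 transcripts, and the 300 bases around a start (250 before to 50 after) are shown for the intergenic Gm26535 and for Gm16894, a locus without and a locus with a gene on the opposite strand. They come from RefSeq on GRCm38.p6, chr10:37319255-37319554 (plus strand) and chr1:40085802-40086101 (minus strand). Capitals mark GAGGAA (ETS family) and TTGCNNAA (C/EBP family), letters searched on both strands together with TGTGGT (RUNX family).
Gm26535: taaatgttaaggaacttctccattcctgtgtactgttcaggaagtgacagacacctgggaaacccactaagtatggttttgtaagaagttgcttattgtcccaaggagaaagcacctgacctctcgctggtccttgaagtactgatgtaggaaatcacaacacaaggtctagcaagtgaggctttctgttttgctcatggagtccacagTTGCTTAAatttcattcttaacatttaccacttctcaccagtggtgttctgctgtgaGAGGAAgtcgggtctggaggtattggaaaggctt
Gm16894: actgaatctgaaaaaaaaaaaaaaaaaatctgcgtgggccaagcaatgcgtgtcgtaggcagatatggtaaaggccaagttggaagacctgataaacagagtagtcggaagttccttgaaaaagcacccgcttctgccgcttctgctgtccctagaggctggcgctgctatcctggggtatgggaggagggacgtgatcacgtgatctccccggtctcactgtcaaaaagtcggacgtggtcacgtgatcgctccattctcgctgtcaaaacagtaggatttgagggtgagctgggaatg
The Gm26535 window held 1 GAGGAA and 1 TTGCNNAA, and RefSeq places this start before the GENCODE gene's start. The Gm16894 window held none of the 3. Across 27025 promoters of the same length, 28.3% held GAGGAA, 10.8% TTGCNNAA and 16.9% TGTGGT. The remaining starts held none, apart from 1 TTGCNNAA at a second Gm26535 start and 2 TGTGGT at Gm2245. A match is a run of letters and not a site.

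The 6 libraries held 69776 kept cells of 74091 barcodes and 82962160 to 244946998 UMIs in kept cells, with a median of 6924 to 9158 UMIs per cell, and any pair shared 15 to 73 cell barcodes (at most 0.668% of the smaller library). Cells carried the authors' integrated clusters, and clusters 0 to 4 were treated as neutrophil clusters, since 90.9% to 100% of their cells per library had the deposited neutrophil label. The study's own naming differs in part. It likened clusters 0 and 4 to neutrophils by their genes, and clusters 1 to 3 to myeloid-derived suppressor cells, which regulate immune responses. Summed levels of 14 neutrophil genes were 163804 to 439571 counts per 1000000 UMIs of the cluster and sample (CPM) in femur and 222451 to 430643 CPM in mandible. Elane, a protease of early precursors, averaged 1058 CPM in cluster 4 and 4.83 to 5.93 CPM in clusters 0 to 3. Camp, a granule peptide, stood at 30396 CPM in cluster 0 and 43246 CPM in cluster 4, whereas Csf3r (2659 CPM) and Cxcr2 (1477 CPM) were highest in cluster 1. Cluster 3 led in Retnlg, a late granule gene (27124 CPM). Cluster 5 carried the monocyte gene Ccr2 (748 CPM) and cluster 6 the B cell gene Cd79a (1639 CPM).

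In each neutrophil cluster the UMIs of the 10 transcripts together were lower in every mandible sample than in every femur sample. In cluster 1, where their sum was highest, it averaged 415 ± 58.9 CPM in femur and 143 ± 63.7 CPM in mandible (SD, n = 3 each). The sums were 89.6 ± 8.31 and 38.5 ± 15.8 CPM in cluster 0 and 72.8 ± 9.27 and 32.7 ± 10.1 CPM in cluster 4. For single transcripts, the ratio of the femur mean to the mandible mean ran from 1.65 to 4.57 (median 2.88) over the 49 pairs of a transcript and a cluster with a mandible UMI. The remaining pair was Gm26535 in cluster 3.

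**Figure D1:**
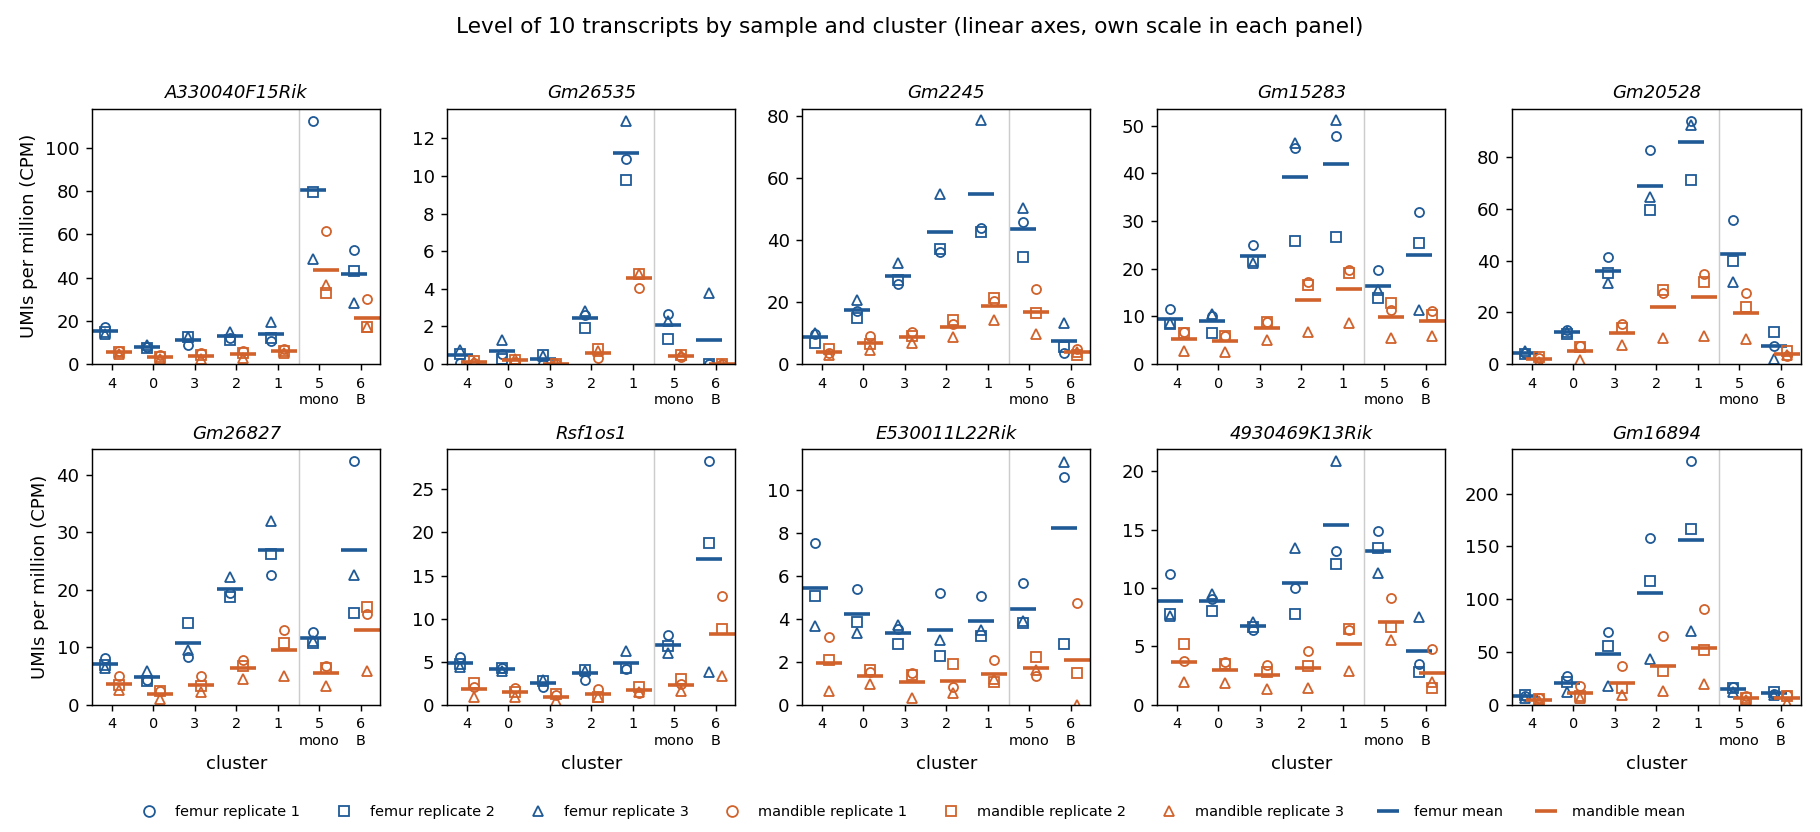
Level of each of the 10 transcripts in clusters 0 to 4 of the neutrophils, and in clusters 5 (monocyte genes) and 6 (B cell genes), in CPM on linear axes scaled by panel, with 1 symbol per sample and a bar at each group mean. Femur symbols lie above mandible symbols in most positions, with Gm16894 showing the overlap of femur replicate 3 with mandible replicate 1 in clusters 0 to 3.

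Gm16894, opposite Il1r2, had the widest spread between samples of a site in cluster 1. It was at 230.4, 167 and 70.0 CPM in the femur samples and 90.8, 51.5 and 20.1 CPM in the mandible samples. Femur replicate 3 lay below mandible replicate 1, so the groups overlapped there, as they did in clusters 0, 2 and 3. Means were 156 ± 80.7 and 54.2 ± 35.4 CPM. In cluster 4, the precursor cluster, Gm16894 was at 8.35, 9.62 and 6.48 CPM in the femur samples and 5.97, 5.39 and 3.48 CPM in the mandible samples, and the groups did not overlap.

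Gm2245, opposite Fyb, stood in cluster 1 at 43.7, 42.6 and 78.5 CPM in the femur samples and 20.3, 21.3 and 14.3 CPM in the mandible samples. Femur replicate 3 was highest and every mandible sample lay below every femur sample. The means were 54.9 ± 20.4 and 18.6 ± 3.83 CPM, a 2.95-fold ratio. Across clusters 0 to 4 the log2 difference of mandible from femur ranged from -1.83 to -1.21.

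Gm15283, over Hif1a, measured 47.8, 26.6 and 51.1 CPM in the femur samples and 19.8, 19.1 and 8.55 CPM in the mandible samples in cluster 1. Mandible replicate 3 was the lowest sample, and the groups stayed apart although femur replicate 2 came near the mandible values. The ratio of means was 2.65. Over clusters 0 to 4 the log2 difference lay between -1.56 and -0.79.

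Lcp2's antisense partner 4930469K13Rik had 13.2, 12.01 and 20.9 CPM in the femur samples and 6.4, 6.46 and 2.85 CPM in the mandible samples in cluster 1. The lowest femur sample was thus above the highest mandible sample. In cluster 4 a single cell held up to 25 UMIs of it, and A330040F15Rik reached 22 UMIs in a cell of the same cluster. The log2 difference of 4930469K13Rik ran from -1.69 to -1.23 over clusters 0 to 4.

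Gm26827, opposite Chsy1, was found at 22.6, 26.3 and 31.9 CPM in the femur samples and 12.98, 10.7 and 4.95 CPM in the mandible samples in cluster 1. The sites were apart there. Its difference on the log2 scale was -1.63 to -0.92 over the neutrophil clusters. Gm20528, over the Ugt1a genes, had 94.1, 71.1 and 92.4 CPM in the femur samples and 34.7, 31.9 and 10.7 CPM in the mandible samples, with mandible replicate 3 far below the other mandible samples. Means of Gm20528 were 85.9 ± 12.8 and 25.7 ± 13.1 CPM, again without overlap, and its log2 difference spanned -1.59 to -1.16.

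A330040F15Rik, which contains Fam111a, had its highest femur mean of the neutrophil clusters in the precursor cluster 4, within the spread of cluster 1, and its highest mandible mean in cluster 1. It was at 17.1, 14.8 and 13.7 CPM in the femur samples and 6.24, 5.57 and 4.80 CPM in the mandible samples in cluster 4. The samples of each site lay close together there, with means of 15.2 ± 1.71 and 5.54 ± 0.720 CPM. In cluster 1 it had 10.5, 12.1 and 19.5 CPM in the femur samples and 6.93, 5.86 and 4.95 CPM in the mandible samples, also apart. The cluster 4 difference was -1.43 ± 0.14 (log2 ± SE).

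Gm26535, Rsf1os1 and E530011L22Rik gave the fewest UMIs. Gm26535, the intergenic RNA, was highest in the mature cluster 1, at 10.9, 9.79 and 12.9 CPM in the femur samples and 4.03, 4.81 and 4.80 CPM in the mandible samples, from 159, 172 and 343 UMIs in femur and 46, 32 and 32 in mandible. No mandible sample reached a femur sample. Femur means were 11.2 ± 1.59 CPM in cluster 1 against 2.44 ± 0.458 CPM in cluster 2 and at most 0.693 CPM in clusters 0, 3 and 4. In mandible cluster 3 no UMI was found in 3286 cells, which allows a share of cells with a UMI of up to 0.0913% by counting error alone, so no fold is given there.

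Rsf1os1 measured 4.19, 4.27 and 6.22 CPM in the femur samples and 1.40, 2.10 and 1.5 CPM in the mandible samples in cluster 1, and E530011L22Rik 5.08, 3.19 and 3.47 CPM in the femur samples and 2.10, 1.05 and 1.20 CPM in the mandible samples. Both sets of samples were apart between sites. Their log2 differences over clusters 0 to 4 were -1.48 to -1.35 and -1.66 to -1.23. A second antisense gene of the Rsf1 locus, Rsf1os2, which is not among the 10, had log2 differences of -1.96 to -1.07 in the same clusters, with edgeR adjusted p of 0.161 to 0.771.

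Of 50 pairs of a transcript and a neutrophil cluster, 47 passed the filter on low counts in edgeR's quasi-likelihood test, the exceptions being Gm26535 in clusters 0, 3 and 4. The 47 were lower in mandible, 43 had every mandible sample below every femur sample, and 1 passed a false discovery rate of 0.05. Over all genes in these clusters, 0.00739% of gene and cluster pairs were called lower and 9.74% had that separation. DESeq2 was run on all 50 pairs and called 30, against 0.334% of 107698 pairs called lower. That base holds every pair with at least 1 UMI, also those the edgeR filter removed, against 54125 filtered pairs. In edgeR without the filter on low counts 42 of 50 were called, against 0.918%, and in a fit of 4 samples blocked by library number 39 of 48, against 3.3%. The selection used this contrast, so nothing is read from these counts.

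The separation did not come equally from each library. Mandible replicate 3 was the lowest of the 6 samples for 43 of the 47 tested values in the 5 clusters, by the counts 9 of 9, 7 of 10, 9 of 10, 9 of 9 and 9 of 9 in clusters 0 to 4. The highest was a femur sample in every case. Without mandible replicate 3 the median log2 difference over the 47 was -1.12, against -1.43 with it, and without the female femur replicate 1 the values stayed negative in 47 of 47. Within library number 6 of the labels (femur replicate 2 and mandible replicate 1) 49 of 49 pairs were lower in mandible, with a median log2 ratio of -1.02, and within number 7 (femur replicate 3 and mandible replicate 2) 49 of 49, with a median of -1.41. What these library numbers stand for is not given in the sources used here. The transcripts were selected on this contrast in the same samples, so nothing is read from these counts of lower pairs.

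The share of cells with a UMI of any of the 10 was lower in mandible. This share uses the UMI counts that chose the transcripts, so nothing is read from its direction or from its counts of lower pairs. In cluster 1 it was 84.8%, 75.8% and 71.0% in the femur samples and 59.0%, 47.9% and 28.0% in the mandible samples. The sites did not overlap there. In cluster 4 it was 71.3%, 66.6% and 66.7% against 52.1%, 43.8% and 37.3%. Median UMIs per cell in cluster 1 were 3827 to 6154 in femur and 4192 to 5121 in mandible, and the order of the femur shares there was that of their depth. In cluster 0 every mandible median (8553 to 11354) was below every femur median (11376 to 13212), so the shares were also taken at equal depth. Among single transcripts, Gm16894 had a UMI in 45.98% ± 20.1 of femur and 21.97% ± 13.8 of mandible cells of cluster 1, and Gm20528 in 30.5% ± 5.43 and 11.9% ± 5.97 (SD, n = 3 each). Gm26535 UMIs came from 4.04% ± 0.463 and 1.79% ± 0.0483 of the cells of cluster 1, and in femur replicate 1, 91 of 2196 cells (4.14%, exact 95% binomial interval 3.35% to 5.06%) held its 159 UMIs, with up to 11 in a cell. In cluster 3 its share was 0.21% in femur. After every cell was thinned to 1000 UMIs (which left out 10 femur and 2 mandible cells of cluster 1 as shallower), the mandible mean share was below the femur mean in 49 of 50 pairs, against 50 of 50 before thinning. Every mandible sample was below every femur sample in 44 of the 50 before thinning and in 36 after it, against 8.34% and 7.95% of all gene and cluster pairs, and in cluster 4 in 9 and 4 of 10. In the B cell-gene cluster 6, at median depths of 5042 to 5541 UMIs per cell in femur and 3104 to 4629 in mandible, the share with any of the 10 was 64.1%, 46.2% and 51.7% in femur and 38.0%, 24.1% and 17.8% in mandible, and that of Gm16894 was 6.25% ± 0.985 and 2.86% ± 2.11, before thinning. Thinned to 1000 UMIs, the share of Gm16894 in cluster 6 was 0.422% ± 0.731 in femur and 0.503% ± 0.500 in mandible, so no order is read there. Free RNA in the droplets can add to every such share, and the interval covers counting error only.

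**Figure D2:**
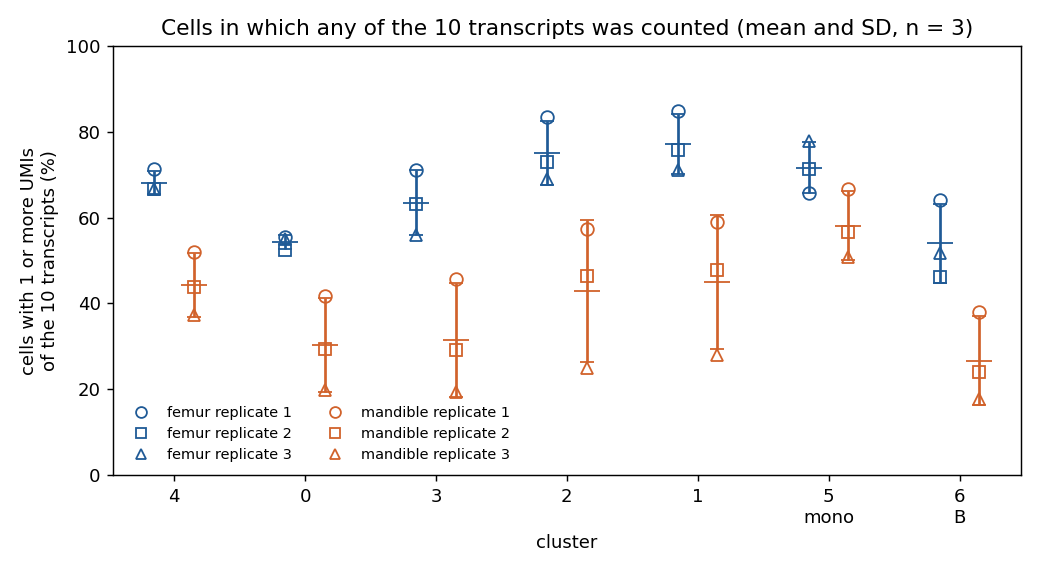
Percent of cells with at least 1 UMI of any of the 10 transcripts, by cluster and sample, for clusters 0 to 6, with symbols for samples, a horizontal line at each group mean and bars for the SD (n = 3). The femur mean is above the mandible mean in each of these clusters, for example 77.2% against 45.0% in cluster 1.

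The genes on the opposite strand were not selected on the site difference as the transcripts were, so nothing is read from the size of their differences beside those of the transcripts. Of the 11 opposite-strand genes tested, the 51 pairs with clusters 0 to 4 had log2 differences of -0.83 to 0.29 with a median of -0.20. No pair passed a false discovery rate of 0.05 in edgeR (0 of 51, with 5 at an unadjusted p under 0.05). Without the Ugt1a genes, 40 pairs of 8 genes had a median of -0.13 and a range of -0.52 to 0.29, with 31 of 40 negative. Every mandible sample was below every femur sample in 11 of the 51 and in 6 of the 40, beside 9.74% of all gene and cluster pairs. Of the 26 genes that overlapped or neighboured the 10, 14 were tested, and edgeR called 0 of their 63 pairs. DESeq2 called 1 pair among the 26, and more were called without the filter on low counts and with the library-number block, as the closing section gives. In cluster 1, Il1r2 averaged 2386 CPM in femur and 1874 CPM in mandible (-0.21 ± 0.37, log2 ± SE, edgeR adjusted p = 0.865). Fyb was at 1060.0 and 831 CPM (-0.22 ± 0.14, edgeR adjusted p = 0.575) and Hif1a at 211 and 163 CPM (-0.24 ± 0.22, edgeR adjusted p = 0.708). Each of these 3 differences was under 2 standard errors. Lcp2 had the largest of the 8 in cluster 1, -0.35 ± 0.13 (edgeR adjusted p = 0.273), and Nktr stood at 0.05 ± 0.25 (edgeR adjusted p = 0.966). The Ugt1a genes were low, with Ugt1a6a at 13.4 and 8.54 CPM (-0.51 ± 0.18, edgeR adjusted p = 0.266) and Ugt1a7c at 12.1 and 8.29 CPM (-0.41 ± 0.19, edgeR adjusted p = 0.397).

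**Figure D3:**
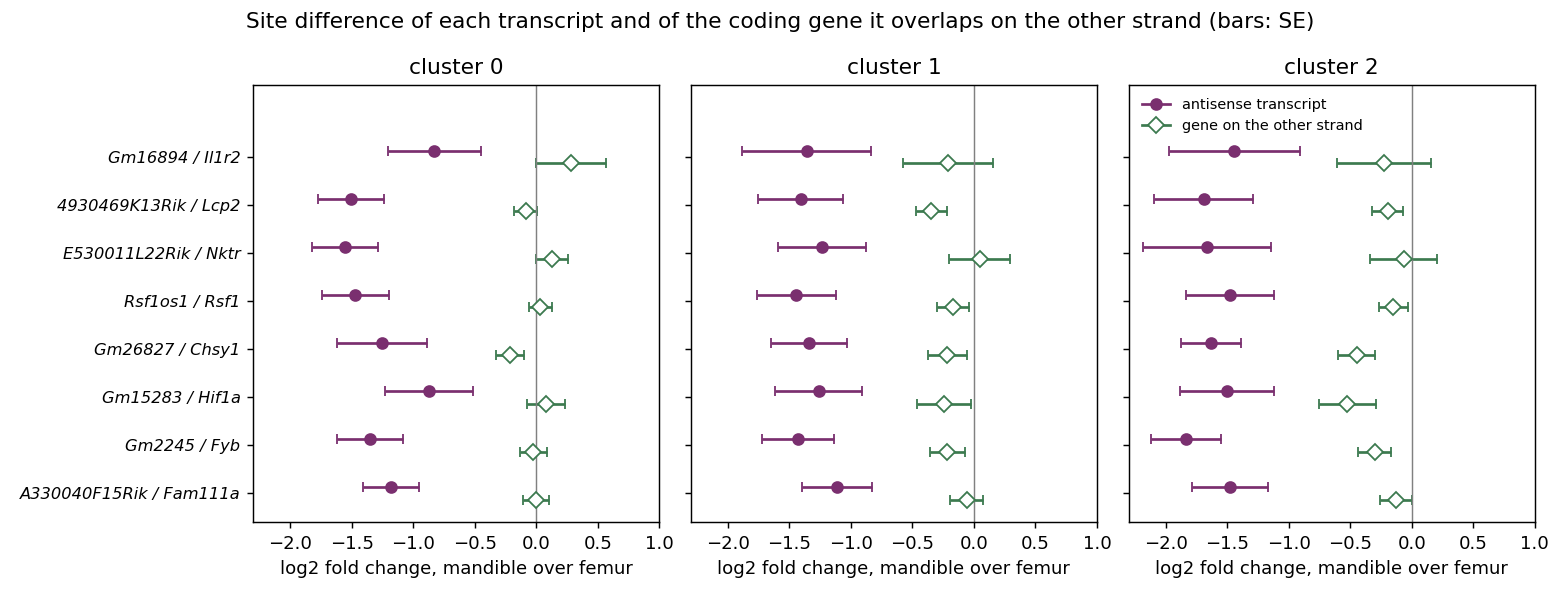
Log2 difference of mandible from femur for 8 transcripts (filled circles) and for the gene on the opposite strand (open diamonds) in clusters 0, 1 and 2, from edgeR with bars for the standard error. Each circle lies to the left of its diamond, and the diamonds, among 40 values with a median of -0.13 over clusters 0 to 4, reach down to -0.52 for Hif1a in cluster 2.

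Each transcript was also set against the gene opposite. UMIs of the transcript were expressed as a percent of UMIs of that gene in the same sample and cluster, for the 8 transcripts whose opposite-strand gene had at least 10 CPM in every sample. This measure is not per length, so it is compared between samples and clusters and not between genes. It was chosen after the values were seen and uses the contrast that chose the transcripts, so it carries no test. As a percent of Il1r2 in cluster 1, Gm16894 was at 6.09%, 8.45% and 5.00% in the femur samples and 3.77%, 2.67% and 1.57% in the mandible samples. The sites did not overlap on this measure, and femur replicate 3, low in Gm16894, was also the lowest femur sample in Il1r2, at 1401 CPM against 3784 and 1974 CPM in femur replicates 1 and 2. In cluster 4 the percents were 7.82%, 10.4% and 7.43% in the femur samples and 6.65%, 4.01% and 4.63% in the mandible samples. Over 40 pairs of a transcript and a cluster, every mandible sample was below every femur sample in 39, the exception being Gm26827 with Chsy1 in cluster 4, whose CPM values did not overlap, whereas the overlaps of Gm16894 in CPM in clusters 0 to 3 were absent here. The highest sample was femur replicate 3 in 27, femur replicate 1 in 8 and femur replicate 2 in 5, and the lowest was mandible replicate 3 in 37 and mandible replicate 2 in 3. Among other noncoding genes with a coding gene opposite, the same separation held in 27% of 2344 pairs (632), and their median femur to mandible ratio was 1.34 in cluster 0 and 1.23 to 1.25 in clusters 1 to 4.

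In femur the percent varied less over the clusters than the transcript itself for 6 of the 8, and in mandible for 4 of the 8, Gm16894, Gm2245, Gm15283 and Gm26827. Femur means of Gm16894 spanned a 19.1-fold range over clusters 0 to 4 and those of Il1r2 a 25.0-fold range, but the percent spanned 1.35-fold, from 6.51% to 8.77%. In mandible the percent was 2.67% to 5.10%. Gm2245 spanned 6.20-fold and Fyb 9.44-fold, with a percent of 5.22% to 7.91% in femur and 1.89% to 3.44% in mandible. Gm15283 spanned 4.64-fold and Hif1a 5.33-fold, with 19.7% to 24% in femur and 9.15% to 14.4% in mandible. These are ranges of group means, and over the single samples of clusters 0 to 4 the ranges of the sites met for each of these 3. They were 5.00% to 11.7% in femur and 1.57% to 6.65% in mandible for Gm16894, 3.78% to 9.36% and 1.15% to 4.32% for Gm2245, and 16.6% to 26.1% and 5.88% to 17.97% for Gm15283. Gm26827 and Chsy1 (5.62-fold and 6.15-fold) had means of 17.9% to 29.9% and 7.69% to 18.8%. A330040F15Rik was 4.53% to 6.80% of Fam111a in femur and 1.63% to 2.87% in mandible, and 4930469K13Rik 4.4% to 8.56% of Lcp2 and 1.85% to 3.92%. For Rsf1os1 with Rsf1 and E530011L22Rik with Nktr the percent varied more than the transcript in femur, 2.22-fold against 1.92-fold and 3.10-fold against 1.62-fold. The pairs share libraries and cells, so these ranges are a description.

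**Figure D4:**
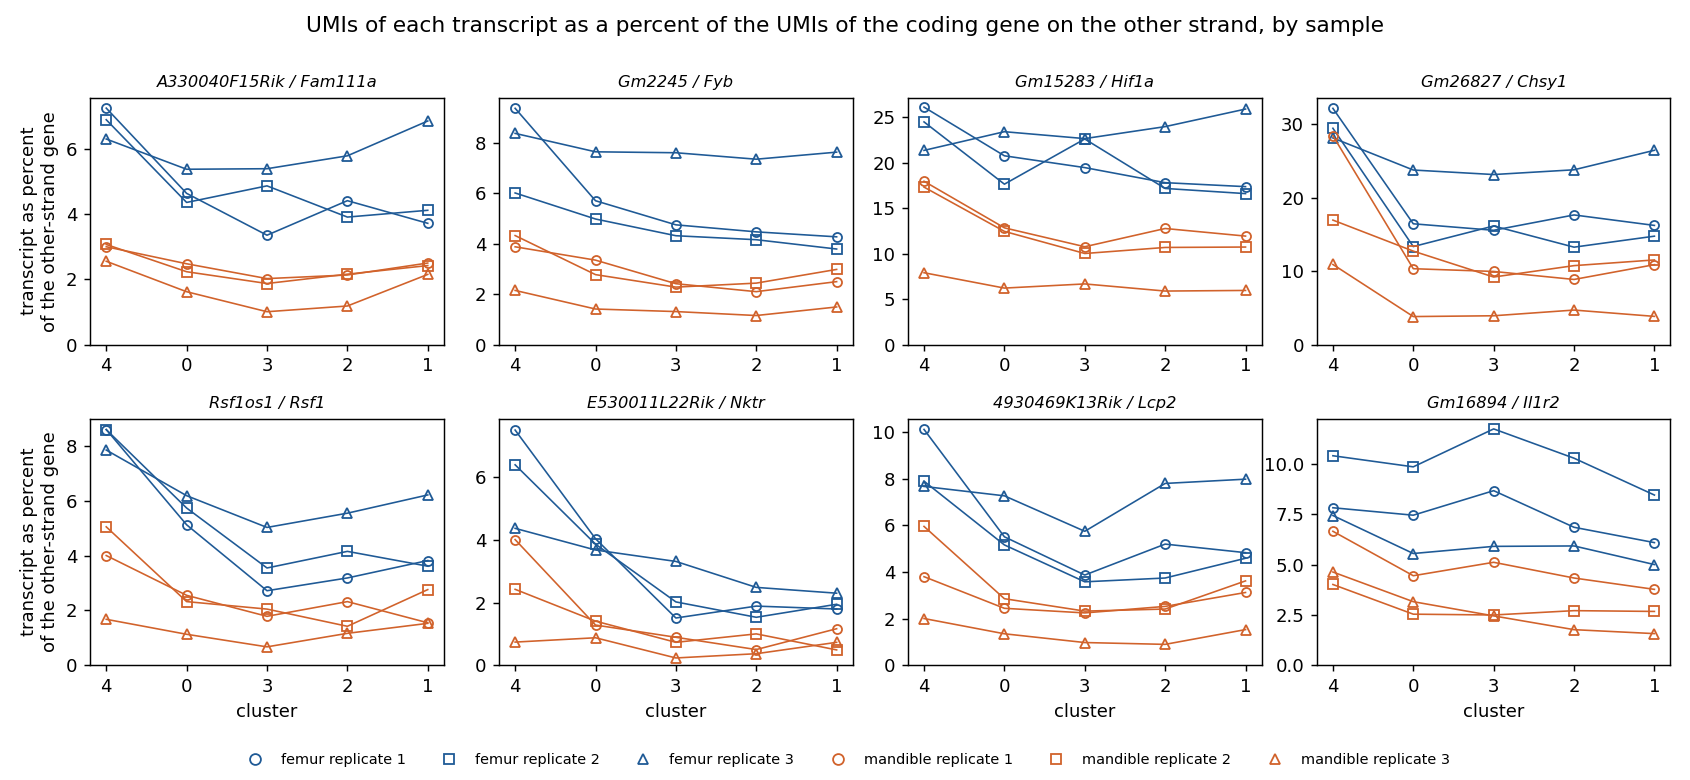
UMIs of 8 transcripts as a percent of UMIs of the gene on the opposite strand, in clusters 0 to 4, with 1 symbol per sample and lines joining a sample over clusters, which are ordered from 4 to 1. Mandible symbols lie below femur symbols in 39 of the 40 comparisons, and the femur values of Gm16894 stay between 6.51% and 8.77% in their means.

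The lower level was seen more widely in the antisense class. Leaving the 10 out, 634, 457, 361, 317 and 601 antisense genes were tested in clusters 0 to 4. Their median log2 differences were -0.24, -0.26, -0.21, -0.25 and -0.29, and 62.1% to 68.6% of them were negative, while the median of all genes was near 0. Every mandible sample was below every femur sample for 32.6%, 26.5%, 27.1%, 21.8% and 29.95% of antisense genes, beside 8.63%, 16.9%, 8.41%, 3.87% and 10.1% of all genes. Single antisense genes outside the 10 were not called by edgeR in the 5 clusters (0 of 2370 tests, with 612 at an unadjusted p under 0.05, of which 517 were lower in mandible), and DESeq2 called 76 of 8967, 66 of them lower. Long intergenic RNAs had medians of -0.03 to 0.02. The median over the 47 values of the 10 transcripts was -1.43. Antisense genes took 0.560% ± 0.041 of the UMIs of cluster 1 in femur and 0.470% ± 0.048 in mandible. The sites overlapped there, with mandible replicate 1 (0.525%) above femur replicate 1 (0.521%), and in each of the other neutrophil clusters. Long intergenic RNAs took 1.77% ± 0.590 of these UMIs in femur and 1.36% ± 0.447 in mandible, also with overlap, so this share does not set the antisense class apart. The split by class was chosen after values were seen.

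**Figure D5:**
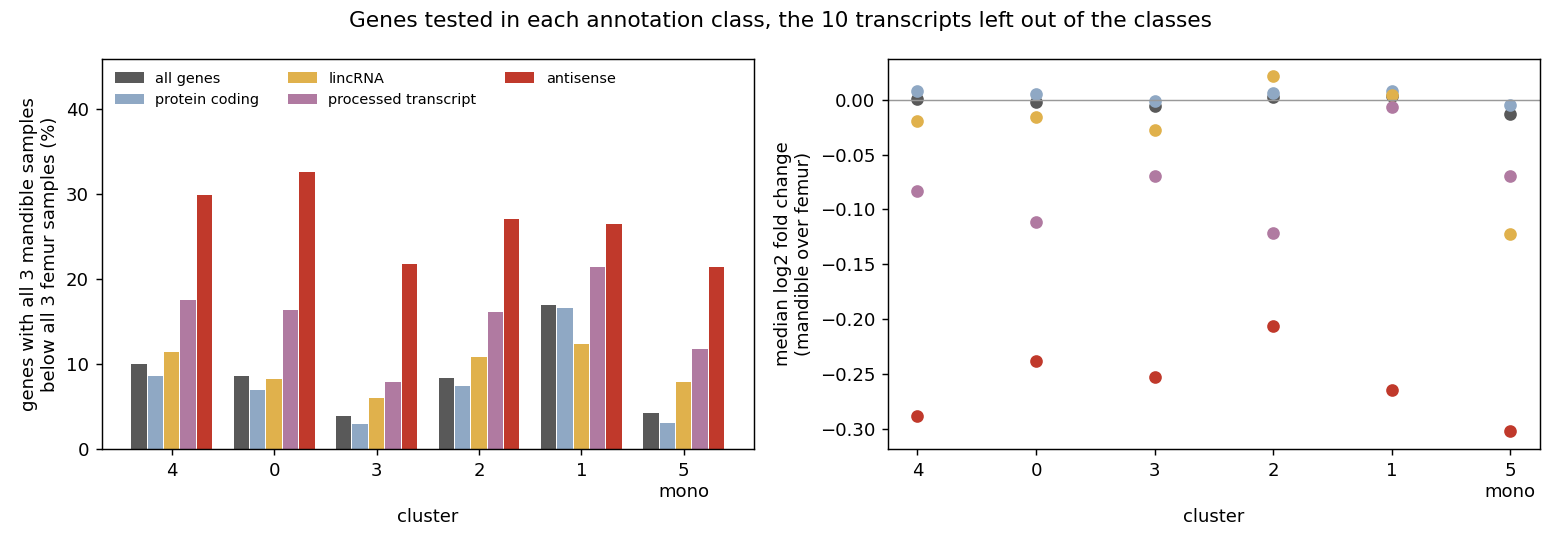
Genes tested in each annotation class in clusters 0 to 5, the 10 transcripts left out. Bars on the left give the percent of genes with every mandible sample below every femur sample, and dots on the right the median log2 difference of mandible from femur, where the antisense class is lowest in each cluster, at -0.29 to -0.21 in clusters 0 to 4.

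For reference, values of a list of widely studied noncoding RNAs are given, which unlike the 10 were not selected on the site difference. Of 43 listed genes in the matrices, leaving out Xist since the samples differ in sex, 32, 27, 23, 22 and 35 were tested in clusters 0 to 4, and edgeR called 0 of 139 pairs (15 at an unadjusted p under 0.05, 1 called by DESeq2). More pairs were called without the filter on low counts and with the library-number block, as the closing section gives. The medians over the tested genes were -0.10, -0.01, -0.10, -0.09 and -0.02. Malat1, an abundant nuclear RNA, differed by -0.23 to -0.01, and Neat1, the scaffold of paraspeckles, by -0.32 to -0.06. Morrbid, an RNA known for the lifespan of short-lived myeloid cells, was at 0.68 ± 0.14 in cluster 1 (log2 ± SE, edgeR adjusted p = 0.0966), a positive value short of the threshold that was singled out after the values were seen.

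In monocyte-gene cluster 5, from the same libraries that the selection used, the 10 were lower in mandible in 10 of 10 tests. The transcripts were listed with results of these libraries known, so nothing is read from the counts in this cluster. The log2 differences over all 6 samples ran from -0.77 (Gm15283) to -2.25 (Gm26535), and from -0.37 to -2.19 for the same transcripts when 4 samples were blocked by library number. No value passed a false discovery rate of 0.05 in edgeR (0 of 10, adjusted p of 0.529 to 0.687), where 0% of all genes were called lower. An unadjusted p under 0.05 was reached by 10 of 10, against 3.86% of all genes in that direction, and DESeq2 called 4 of 10, against 0.168%. The groups did not overlap for 9 of 10, against 4.29% of all genes. Antisense genes outside the 10 had a median log2 difference of -0.30 in this cluster, and 21.5% of them were without overlap. The exception was A330040F15Rik, whose level was highest in this cluster, at 113, 79.8 and 48.5 CPM in the femur samples and 61.6, 32.9 and 36.6 CPM in the mandible samples, with femur replicate 3 below mandible replicate 1. Its level was higher in cells called G1 by the deposited phases, 89.0 ± 34.9 CPM in femur and 52.8 ± 13.1 CPM in mandible, against 28.0 and 18.4 CPM in S phase. Within single phases of this cluster the mandible mean was above the femur mean for 3 values, 4930469K13Rik in G2M (9.16 and 8.21 CPM), Gm15283 in G2M (10.3 and 9.48 CPM) and Gm26827 in S phase (8.64 and 5.97 CPM). Between 24.2% and 49.7% of cluster 5 cells per library carried the deposited neutrophil label.

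B cell-gene cluster 6 held 257 femur and 752 mandible cells. A330040F15Rik, Gm26827 and Rsf1os1 were tested there, at log2 differences of -1.06, -0.91 and -1.10. Blocked by library number in 4 samples, they were -0.64, -0.27 and -0.01, with adjusted p of 0.648, 0.96 and 1.00 in edgeR. Within library number 7, Rsf1os1 was higher in mandible, at 8.78 CPM against 3.77 CPM in femur, the latter from 2 UMIs. No value passed in edgeR (0 of 3, adjusted p = 1, 1 at an unadjusted p under 0.05, DESeq2 0 of 3), where 0% of genes were called lower, and 0 of 3 were without overlap against 3.01%. In cluster 7, whose cells also bore the neutrophil label in 92.1% to 98.9%, 6 transcripts passed the filter, 6 were lower in mandible and 5 did not overlap, against 7.91% of genes. For example, Gm2245 had 42.0, 29.0 and 35.8 CPM in the femur samples and 12.4, 11.97 and 2.76 CPM in the mandible samples. In cluster 7 edgeR called 0 of the 6, and 0 of 5939 genes were called lower. These cells share the label and libraries of the selected clusters, so nothing is read from the cluster 7 counts.

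The order of levels over clusters split the 10. In femur, Gm16894 averaged 156 ± 80.7 CPM in cluster 1, 106 ± 57.7 in cluster 2, 47.6 ± 26.7 in cluster 3, 20.2 ± 7.81 in cluster 0 and 8.15 ± 1.58 in cluster 4, with clusters 1 and 2 within their spread. Gm20528 followed the same order, from 85.9 ± 12.8 CPM in cluster 1 to 4.31 ± 0.637 in cluster 4. Gm15283 (from 41.8 ± 13.3 to 9.02 ± 2.16 CPM in cluster 0), Gm2245 (to 8.86 ± 1.84 CPM in cluster 4) and Gm26827 (to 4.79 ± 0.966 CPM in cluster 0) also had their highest mean of the neutrophil clusters in cluster 1, the cluster of highest Csf3r and Cxcr2, though for Gm15283 and Gm2245 within the spread of cluster 2. In femur, A330040F15Rik and E530011L22Rik were highest in clusters outside the mature neutrophils. There A330040F15Rik averaged 80.3 ± 32.1 CPM in cluster 5 and 41.5 ± 12.4 CPM in cluster 6. E530011L22Rik averaged 8.24 ± 4.71 CPM in femur cluster 6, from 3, 3 and 6 UMIs, where its spread reached its neighbours in the order. In mandible its highest mean was in cluster 7, at 2.87 ± 2.49 CPM, also within its spread. In femur Rsf1os1 too was highest in cluster 6, at 16.9 ± 12.3 CPM, from 8, 20 and 2 UMIs. That mean was within 1 SD of the next, cluster 7 (8.59 ± 6.82 CPM), and of cluster 5. Gm26827 was as high in femur cluster 6 (26.98 ± 13.7 CPM) as in femur cluster 1 (26.93 ± 4.69 CPM).

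Across 30 sums (6 samples in 5 clusters), genes with the most similar pattern were named by Pearson's r as a description, since the sums share libraries and depth. For Gm20528 they were Raet1e (r = 0.968), Gm32250 (r = 0.952) and Gm20404 (r = 0.944). For Gm15283 they were Raet1e (r = 0.955), 4930444A19Rik (r = 0.920) and 4930549C15Rik (r = 0.920), and for Gm2245 Raet1e (r = 0.943), Gm44649 (r = 0.940) and Lysmd4 (r = 0.916). Raet1e, a gene of the NKG2D ligand family, thus came first for 3 of the 10. For Gm16894 the nearest were Pcf11 (r = 0.964), Nrbp1 (r = 0.962) and Ensa (r = 0.951), and for Gm26827 Ttc19 (r = 0.945), Raet1e (r = 0.924) and Rsrc2 (r = 0.912). Mfsd4a came first for A330040F15Rik (r = 0.935), before Tg (r = 0.913) and 5330438D12Rik (r = 0.912), and for 4930469K13Rik (r = 0.949), before Gm48678 (r = 0.935) and Usp50 (r = 0.920). Gm26535, Rsf1os1 and E530011L22Rik were under the minimum of 5 CPM on average and were not searched.

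Among lists of marker genes of other cells, the enamel genes were higher in mandible in every neutrophil cluster. Within clusters 0 to 4, the sum over 3 enamel genes had 0 to 0.0973 CPM in femur and 6.998 to 68.6 CPM in mandible. The 6 monocyte genes had 329 to 1147 and 518 to 1155 CPM, the 5 erythroid genes 11.6 to 299 and 16.3 to 1031 CPM, and the 6 B cell genes 1.35 to 10.5 and 4.06 to 24.9 CPM. These ranges pool clusters 0 to 4. Monocyte genes were apart in cluster 1 (329 to 432 and 518 to 657 CPM) and cluster 2 (533 to 675 and 755 to 859 CPM). They overlapped in clusters 0, 3 and 4. In clusters 1 and 2 most of the monocyte sum was Ly6c2 (means of 391.5 and 641.7 CPM), followed by Csf1r (76.9 and 55.1 CPM). Ccr2, Cx3cr1, F13a1 and Ms4a6c of that list averaged at most 6.42 CPM there, so the sum does not stand for monocytes. Erythroid genes were apart in cluster 0 only (16.5 to 24.6 and 46.5 to 192 CPM), and B cell genes in none. The median mitochondrial percent per cell in cluster 1 was 0.196% to 0.266% in femur and 0.295% to 0.365% in mandible, without overlap. The mitochondrial share of summed UMIs was apart between sites in cluster 2 (0.334% in femur and 0.531% in mandible) and cluster 3 (0.329% and 0.415%). Other lists stood, femur before mandible, at 7.55 to 94.6 and 13.7 to 136 CPM (4 T and NK cell genes), 2.90 to 17.1 and 5.55 to 25.3 CPM (5 stroma and bone genes), 0.0873 to 4.04 and 0.137 to 15.8 CPM (2 platelet genes) and 0.0973 to 8.81 and 0 to 143 CPM (3 basophil and mast cell genes). T and NK cell genes were apart in clusters 1, 2 and 4 and stroma and bone genes in cluster 4, higher in mandible each time. Most of the T and NK cell sum was Cd3d in clusters 1 and 2 (means of 11.1 and 13.8 CPM) and Nkg7 in cluster 4 (100 CPM). Cd3e and Klrb1c of that list averaged at most 0.116 CPM in these clusters, so the sum does not stand for T or NK cells. The part of all these lists and shares in the lower levels of the 10 was not tested. With cells of the deposited neutrophil label alone, the mandible mean was below the femur mean in 50 of 50 pairs. In clusters 0 to 3, 98.95% to 100% of cells per library carried that label, so this count could hardly change. Nothing is read from it. With cells in G1 alone the mandible mean was below the femur mean in 48 of 50, the exceptions being Gm26535 and Gm26827 in cluster 4. In G1 cells of cluster 4 the ratio of the femur to the mandible mean ran from 0 (Gm26535) to 6.08 (A330040F15Rik). Femur replicate 1 stood there at 0 or 12.8 CPM for each of the 10, so these values rest on few molecules. A330040F15Rik had 3.55, 0 and 0 CPM in the mandible samples, and Gm26535 had 0, 0 and 2.42 CPM. Only Gm2245 had every mandible sample below every femur sample in those cells. Nothing is read from the counts in G1 cells. In barcodes that the authors had left out of the clusters, the 10 summed to 175, 112 and 103 CPM in femur and 57.6, 45.0 and 30.2 CPM in mandible. The sites did not overlap in these barcodes. They come from the libraries that the selection used, so nothing is read from this. They were also unlike between samples, with 2332 barcodes and 5970837 UMIs in femur replicate 1 against 421 barcodes and 10080344 UMIs in mandible replicate 3.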

How the data were processed

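Raw UMI counts per gene and barcode were deposited by the authors as 6 matrices, with 32285 genes each. Per the labels and file headers they had been made with Cell Ranger (7.0.1 in the submitters' processing notes, 7.1.0 in the matrix header). The authors filtered and integrated cells with Seurat and deposited a table with clusters, phases, reference labels, UMI counts and the mitochondrial percent per cell. The UMI total of a cell in the matrices equalled that in this table for 68.7% to 85.1% of a library's cells and differed from it by at most 2.92%. A deposited table of cluster markers, the authors' own comparison, was not used.

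UMI counts of the kept cells, added up within each cluster of each sample, were tested with edgeR 4.0.16 (TMM, filterByExpr, quasi-likelihood test, Benjamini-Hochberg over all genes of a cluster) in R 4.3.3, since cells of a sample are not replicates (the study tested cells). DESeq2 1.42.0, other size factors, no filter, replicate blocks and leaving out each sample were alternatives. The code was checked on simulated data. No doublet caller was run. Of 32285 gene identifiers, 32235 (99.8%) matched GENCODE vM21. The named genes were the 10 transcripts, genes overlapping or within 10 kb of them, a list of other noncoding RNAs, Malat1 and Neat1 always, and the 3 most similar genes by Pearson's r. The transcripts and lists were chosen with earlier results of these data known, and the percent of the opposite gene and the class split were chosen after values were seen.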

Additional observations from a re-analysis of the deposited data

How the results depend on the processing

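The 47 fold changes of the 10 transcripts in clusters 0 to 4 were negative under each alternative, with medians from -1.63 (without mandible replicate 1) to -1.10 (library numbers as the block), against -1.43. The number of these called at a false discovery rate of 0.05, from which nothing is read since the contrast chose the transcripts, was 1 of 47 in edgeR, 30 of 50 in DESeq2 and 42 of 50 without the filter on low counts, where 0.00739%, 0.334% and 0.918% of all gene and cluster pairs were called lower. It was 0 to 2 on leaving out a sample (0 without femur replicate 1, 2 or 3 or mandible replicate 2, 1 without mandible replicate 3, 2 without mandible replicate 1), with 0% to 0.0540% of all pairs called lower. Replicate numbers of the titles did not pair the samples (correlations of same-numbered samples -0.40 to 0.18 in clusters 0 to 4), and that block left 1 call. Library numbers 6 and 7 gave correlations of 0.29 to 0.50 in clusters 0 to 3 and of 0.003 and 0.13 in cluster 4, but only 2 pairs, and with them as a block in 4 samples 39 of 48 were called, and 3.30% of all pairs. In clusters 5 and 6, 0 of 13 were called, 4 in DESeq2 and 0 elsewhere, and with the library-number block Rsf1os1 in cluster 6 went from -1.10 to -0.01. Neighbouring genes went from 0 to 1 (DESeq2), 5 (no filter) and 13 (library-number block), and the noncoding list from 0 to 1 (DESeq2), 3 (no filter), 5 (library-number block) and 0 to 1 on leaving out a sample (1 without mandible replicate 1). The cause was not tested. Gm26535 had 32 to 46 UMIs per mandible sum in cluster 1 and 3 to 5 in cluster 2, so its values rest on few molecules.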
